A study of Mus musculus with 9 samples.

Results

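Immediate early genes and their feedback inhibitors are described here as a set of 40 genes, chosen by name with earlier results of these data known. They were looked up in a table of 54449 mouse genes. All 40 were found and all 40 were among the 13642 genes that passed a filter on low values, a mean of at least 5 normalized counts over the 9 libraries. RNA had been sequenced from cells sorted as lung eosinophils, granulocytes of type 2 immunity, from C57BL/6 mice. The Siglec-F high group (titled iEOS) and the Siglec-F int group (titled rEOS) came from lungs of mice that had received PyMT tumour cells in saline by tail vein injection, and were divided by the level of Siglec-F, a surface lectin. The naive group came from mice given saline alone. Each group has 3 libraries, and each library pools 3 to 4 mice, so n counts pools and the p-values measure only the spread between these pools. The labels used here give no age or sex, no day of collection and no allele other than the strain, and they describe 1 protocol for all groups, with cells sorted into TRIzol at a stated purity of over 98%.

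Immediate early genes are transcribed within minutes of a stimulus without new protein synthesis, because the factors that switch them on are already present and wait for phosphorylation. MAP kinases act on ternary complex factors bound with the serum response factor SRF at CArG boxes, and, through kinases downstream of them, on CREB at cyclic AMP response elements. The first products are transcription factors such as FOS, JUN and EGR1, and inhibitors that shut the response down, among them dual specificity phosphatases that inactivate MAP kinases and ZFP36 proteins that destroy AU-rich messenger RNAs. In leukocytes these genes accompany activation, and they are also known to respond to tissue dissociation and sorting.

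The libraries held 2205949 to 12495639 reads, with the smallest in the naive group. The markers did not match the label. In every group the summed eosinophil markers lay below those of fibroblasts and of macrophages. In naive libraries they also lay far below those of pigment cells. Of 12 eosinophil markers only 7 passed the filter, Prg3, Cebpe and Ccr3 were at 0 in all naive libraries, Ccr3 also in library 2 of Siglec-F high and in 1 of the Siglec-F int libraries, and Epx was at 0 in 6 of the 9 libraries. Siglecf itself, the gene of the surface protein used in the sort, averaged 11.9 ± 7.35 in Siglec-F high, 12.8 ± 6.78 in Siglec-F int and 16.0 ± 13.9 in naive libraries (normalized counts, SD, n = 3 each) and was not called between any groups. The summed level of the 12 eosinophil markers was 518 to 1174 in Siglec-F high, 190.0 to 423 in Siglec-F int and 272 to 745 in naive libraries. Most of that sum came from Ear1, Ear2 and Ear6. Ear2 averaged 409 in Siglec-F high, 170.15 in Siglec-F int and 309 in naive libraries. Prg2 stood at 379.54 in Siglec-F high library 3, 106 in Siglec-F int library 3 and at most 15.03 in the others. All 11 pigment cell markers were lower in both groups from tumour-injected mice, with a summed level of 542 to 1573 in Siglec-F high, 1046 to 1919 in Siglec-F int and 80446 to 85320.0 in naive libraries. Of 10 fibroblast markers 8 were higher in Siglec-F high and 7 in Siglec-F int libraries than in naive libraries, with sums of 23787 to 35711 in Siglec-F high, 9733 to 25226 in Siglec-F int and 5478 to 7104 in naive libraries. Of 10 macrophage markers 3 were higher in Siglec-F high and 5 in Siglec-F int, with sums of 10993 to 15863 in Siglec-F high, 13191 to 53585 in Siglec-F int and 5701 to 8810.2 in naive libraries. No pigment, fibroblast or macrophage marker was at 0 in every library of a group. The counting strand is not given in the sources used here; 12 of the 40 genes overlap another gene, 2 of them on the same strand (Csrnp1 and Dusp1), and reads of such pairs could be shared. The markers move with the contrasts described below, and their part in each result was not tested. In bulk RNA, fewer cells of a type and less RNA per cell cannot be told apart.

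Against naive libraries, most of the set that changed went up. In Siglec-F high libraries 21 of the 40 genes rose and 1 fell, while 31.3% of all tested genes were called, 14.7% rising and 16.6% falling (limma, adjusted p under 0.05). In Siglec-F int libraries 23 rose and 1 fell, where 22.3% of all tested genes were called, 12.0% rising and 10.3% falling. The median log2 fold change (log2(value + 1) scale, ± SE where given) of the 40 genes was 1.16 in Siglec-F high and 1.28 in Siglec-F int, where the medians of all tested genes were -0.11 and -0.02. Values did not overlap with naive for 23 genes higher and 1 lower in Siglec-F high (20.2% and 26.3% of all tested genes), and for 32 higher and 1 lower in Siglec-F int (23.3% and 27.6%). Both contrasts use the same naive libraries. Beside a gene of the set, alternatives are named where they end or add its call. One of them leaves out a pair of libraries together, library 1 of Siglec-F high and library 2 of Siglec-F int. Among Siglec-F int libraries, library 2 had the highest macrophage marker sum, 53585 beside 13191 and 16272, and the lowest fibroblast marker sum, 9733. Summed over the 40 genes, the level was 56504 to 71137 in Siglec-F high, 52516 to 61298 in Siglec-F int and 22171 to 27001 in naive libraries.

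**Figure D1:**
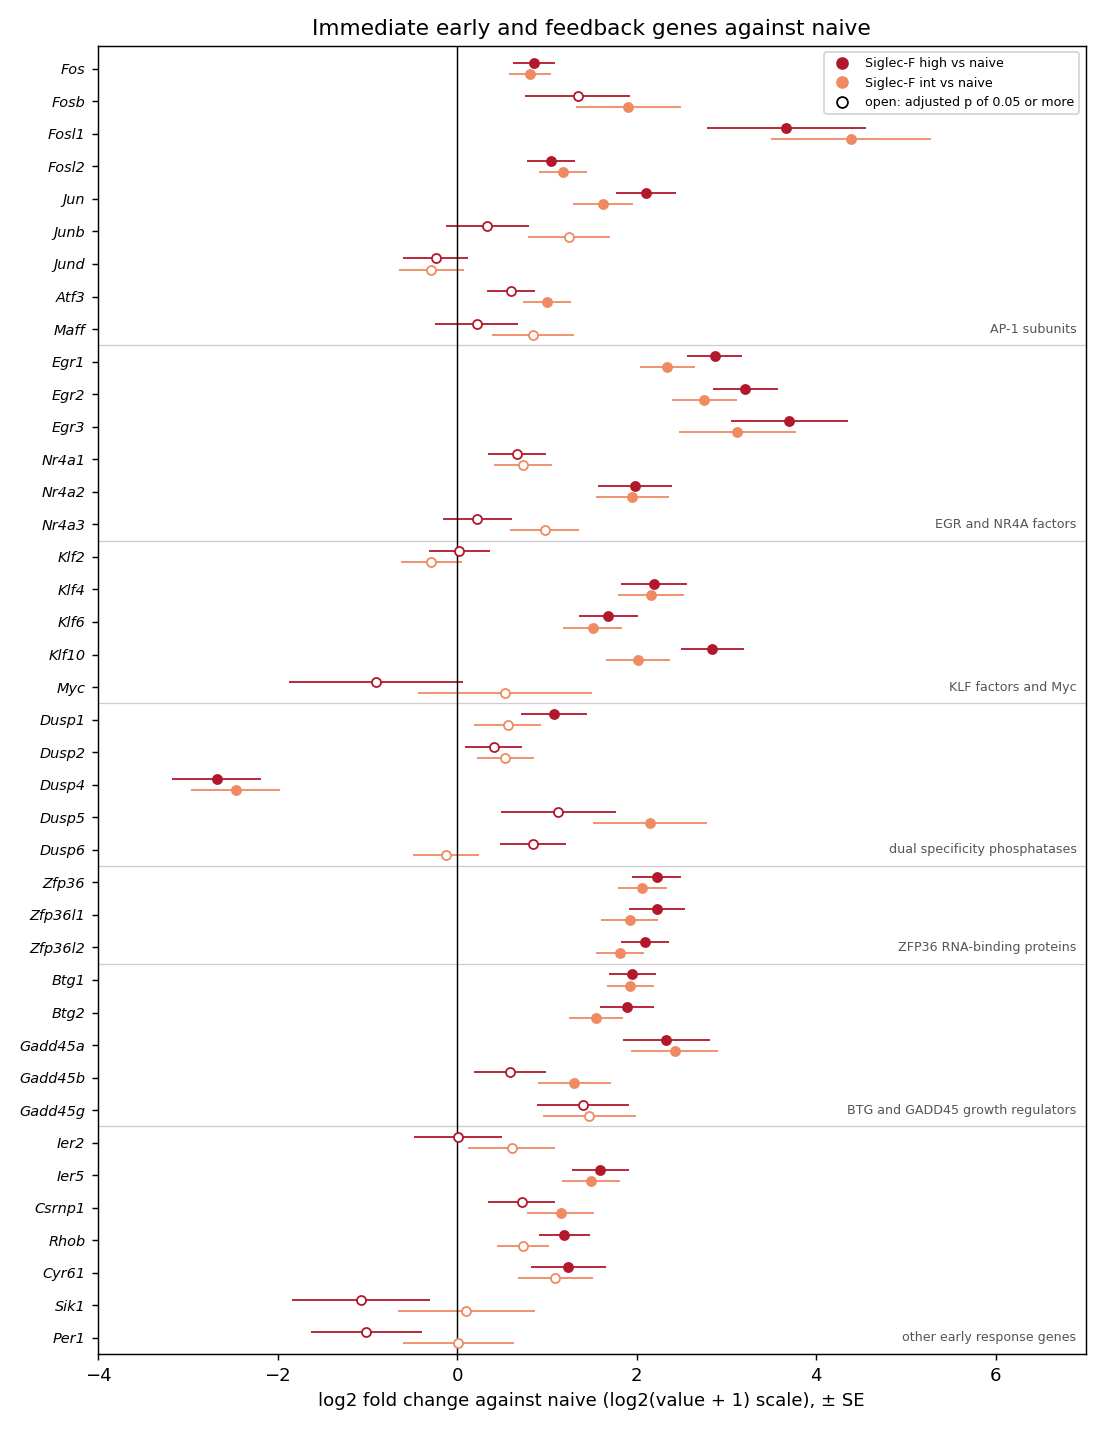
Log2 fold change against naive (horizontal axis, log2(value + 1) scale, bars are SE) for the 40 genes grouped by role, in Siglec-F high (red) and Siglec-F int (orange), with open circles for an adjusted p of 0.05 or more. The EGR and ZFP36 genes lie to the right of 0 in both contrasts, and Dusp4 is the filled gene to the left of 0.

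Equal totals, in place of the authors' size factors, moved the median of all genes to 0.02 in Siglec-F high and 0.23 in Siglec-F int. Under it the calls over all genes split into 2141 higher and 1613 lower in Siglec-F high, against 1999 and 2267 as reported, and into 2007 and 897 in Siglec-F int, against 1634 and 1402. With TMM factors the splits were 2281 and 1840 in Siglec-F high, and 1928 and 1100 in Siglec-F int. The members stayed far above that shift, with medians of 1.30 and 1.55 under equal totals. edgeR on the recovered reads called 3550 of all tested genes in Siglec-F high and 2875 in Siglec-F int. Of the set it called 24 of the 40 genes higher and 1 lower in Siglec-F high, and 28 and 1 in Siglec-F int.

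Sites for the factors named above were looked for in the promoters. RefSeq windows of GRCm38.p6 were found for 31 of the 40 genes and were read over the 250 bases before each annotated start. Egr1, Egr3, Fosl1, Klf10, Myc, Dusp4, Zfp36l2, Ier2 and Sik1 had no window, so their promoters were not read. A CArG box, the SRF site, was present in 3 of 31 members (9.68%) and in 1.62% of the 27025 genes in the table. The cyclic AMP response element TGACGTCA was present in 3 of 31 members (9.68%) and in 1.77% of the 27025 genes in the table. The AP-1 site TGANTCA was present in 2 of 31 members (6.45%) and in 7.82% of the 27025 genes in the table. The EGR site GCGNGGGCG was present in 11 of 31 members (35.5%) and in 5.33% of the 27025 genes in the table, and base composition, which differs between promoters, was not matched. Motifs were searched on both strands, a gene was counted if any of its windows held one, and a match is a description of letters, not of binding. The shares are not a test, because the set is a class known for control by SRF and CREB. The 27025 genes were not limited to those tested here. The 3 promoters with a CArG box and 2 of those with a cyclic AMP response element follow, 5′ to 3′, with CArG boxes, response elements and EGR sites in capitals, because their genes are described below.
Egr2, chr10:67537680-67537929, plus strand: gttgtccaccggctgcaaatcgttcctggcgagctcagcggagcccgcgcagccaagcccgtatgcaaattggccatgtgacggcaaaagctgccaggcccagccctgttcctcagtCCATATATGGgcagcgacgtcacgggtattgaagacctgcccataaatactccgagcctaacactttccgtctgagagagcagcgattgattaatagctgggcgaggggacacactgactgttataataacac
Zfp36, chr7:28379229-28379478, minus strand: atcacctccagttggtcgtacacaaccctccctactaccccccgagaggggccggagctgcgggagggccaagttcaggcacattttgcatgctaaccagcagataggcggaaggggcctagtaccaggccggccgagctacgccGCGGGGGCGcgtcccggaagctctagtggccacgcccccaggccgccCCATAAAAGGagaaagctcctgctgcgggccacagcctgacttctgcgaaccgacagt
Dusp5, chr19:53528895-53529144, plus strand: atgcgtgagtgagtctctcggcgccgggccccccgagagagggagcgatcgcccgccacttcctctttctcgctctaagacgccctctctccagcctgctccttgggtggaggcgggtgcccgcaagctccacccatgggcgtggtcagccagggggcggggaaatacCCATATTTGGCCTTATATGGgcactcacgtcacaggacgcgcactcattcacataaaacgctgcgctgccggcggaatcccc
Btg2, chr1:134079156-134079405, minus strand: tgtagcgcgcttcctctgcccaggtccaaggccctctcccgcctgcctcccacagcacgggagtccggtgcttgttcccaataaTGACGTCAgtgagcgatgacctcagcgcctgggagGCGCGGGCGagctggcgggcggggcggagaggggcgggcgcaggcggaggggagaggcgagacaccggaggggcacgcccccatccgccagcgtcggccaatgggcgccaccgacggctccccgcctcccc
Dusp1, chr17:26508473-26508722, minus strand: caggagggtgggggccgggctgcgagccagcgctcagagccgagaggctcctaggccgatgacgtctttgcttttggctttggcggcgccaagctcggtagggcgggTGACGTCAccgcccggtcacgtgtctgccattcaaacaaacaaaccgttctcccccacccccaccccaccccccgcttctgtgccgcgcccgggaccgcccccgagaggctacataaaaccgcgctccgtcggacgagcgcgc

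In Dusp5 the boxes are adjacent, one 82 to 73 and the other 72 to 63 bases before the start. The box of Zfp36 lies 58 to 49 bases before its start and that of Egr2 133 to 124 bases before the start shown. The response elements of Btg2 and Dusp1 lie 166 to 159 and 143 to 136 bases before their starts. Dusp5 rose in Siglec-F int libraries, while Egr2 and Zfp36 rose in both groups.

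AP-1 is typically a dimer of a JUN protein with a FOS or ATF relative, and Maff, a small MAF gene, is counted in this class here. Of the 9 genes of the class, 4 rose in Siglec-F high and 6 in Siglec-F int libraries, and none fell. Jun (chromosome 4, 95049034 to 95052222, GRCm38), the main partner of FOS, stood at 24942, 15331 and 12764 in the Siglec-F high libraries, 15014, 8598 and 13799.8 in the Siglec-F int libraries and 4021, 3569 and 4259.9 in the naive libraries (normalized counts, libraries 1, 2 and 3 in each group, as throughout). Every library from tumour-injected mice was above every naive library. Its log2 fold change was 2.11 ± 0.33 (adjusted p = 0.00183) in Siglec-F high and 1.62 ± 0.33 (adjusted p = 0.00746) in Siglec-F int, or 4.31-fold in Siglec-F high and 3.08-fold in Siglec-F int. Fosl1, which encodes FRA-1, a FOS relative without a strong activation domain, stood at 262, 1206 and 907 in the Siglec-F high libraries, 1504, 681 and 1252 in the Siglec-F int libraries and 9.17, 122 and 111 in the naive libraries. Its log2 fold changes were 3.67 ± 0.89 (adjusted p = 0.0126) in Siglec-F high and 4.39 ± 0.89 (adjusted p = 0.00697) in Siglec-F int. Naive library 1 held 9.17 normalized counts of Fosl1, and without it the values were 2.49 in Siglec-F high and 3.21 in Siglec-F int. Without naive library 2 they were 4.29 in Siglec-F high and 5.01 in Siglec-F int, and without Siglec-F high library 1 the Siglec-F high value was 4.33. Fosl2, which encodes FRA-2, stood at 501, 669 and 583 in the Siglec-F high libraries, 548, 792 and 591 in the Siglec-F int libraries and 278, 281 and 281 in the naive libraries. The log2 fold changes came to 1.05 ± 0.27 (adjusted p = 0.0151) in Siglec-F high and 1.18 ± 0.27 (adjusted p = 0.0112) in Siglec-F int.

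Fos itself (chromosome 12, 85473890 to 85477273), the partner of JUN in the classical AP-1 dimer, stood at 1931, 1835 and 1809.9 in the Siglec-F high libraries, 2011, 1494 and 1929 in the Siglec-F int libraries and 1048, 998 and 1026 in the naive libraries. It was 1.81-fold higher in Siglec-F high and 1.75-fold higher in Siglec-F int, with log2 fold changes of 0.86 ± 0.23 (adjusted p = 0.0203) in Siglec-F high and 0.81 ± 0.23 (adjusted p = 0.0319) in Siglec-F int. The call in Siglec-F high ended without Siglec-F high library 3 or naive library 1 or 3 (adjusted p = 0.0500 to 0.0564), and with no variance trend (adjusted p = 0.0670). It also ended with a fold minimum of 2, which the 1.81-fold change misses. The adjusted p ranged from 0.000372 to 0.0670 over all alternatives. The call in Siglec-F int ended without Siglec-F high library 3, Siglec-F int library 1 or 3 or naive library 1, 2 or 3 (adjusted p = 0.0552 to 0.128), and with no filter or no variance trend (adjusted p = 0.0755 to 0.0958). It also ended with a fold minimum of 2, which the 1.75-fold change misses. All alternatives together gave an adjusted p of 0.00108 to 0.128. Atf3, a stress-induced repressor and AP-1 partner, stood at 1507, 1901 and 1469.5 in the Siglec-F high libraries, 1974, 2201 and 2236 in the Siglec-F int libraries and 1403, 1024 and 836 in the naive libraries. It rose in Siglec-F int, 1.00 ± 0.27 (adjusted p = 0.0230), and was 0.60 ± 0.27 (adjusted p = 0.105) in Siglec-F high. The Siglec-F int call ended without Siglec-F int library 1, 2 or 3 or naive library 2 or 3 (adjusted p = 0.0530 to 0.0887), and with no filter or no variance trend (adjusted p = 0.0520 to 0.0702). Under all alternatives the adjusted p lay between 0.00173 and 0.0887. In Siglec-F high Atf3 passed with DESeq2 (adjusted p = 0.0456), over a range of 0.0456 to 0.301 under all alternatives.

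Fosb averaged 2125 ± 1485 in Siglec-F high, 2423 ± 487 in Siglec-F int and 647 ± 149 in naive libraries (SD, n = 3 each) and rose in Siglec-F int, 1.91 ± 0.59 (adjusted p = 0.0399). In Siglec-F high it was 1.34 ± 0.59 (adjusted p = 0.10), where library 1 had 502 normalized counts, below every naive library. Without that library the Siglec-F high value was 2.18. Fosb passed in Siglec-F high without Siglec-F high library 1 (adjusted p = 0.000842), and with the pair left out, edgeR or DESeq2 (adjusted p = 0.000798 to 0.0297). An adjusted p of 0.000798 to 0.273 was seen over all alternatives. The Siglec-F int call ended without Siglec-F int library 1, 2 or 3 or naive library 1, 2 or 3 (adjusted p = 0.0693 to 0.122), and with no filter or no variance trend (adjusted p = 0.0750 to 0.0794). Over all alternatives the adjusted p was 0.000621 to 0.122. Junb, Maff and Jund did not pass the limma test with all libraries. Junb, a JUN relative with its own targets, averaged 3273 ± 2047 in Siglec-F high, 5261 ± 905 in Siglec-F int and 2212 ± 397 in naive libraries. In log2 terms the changes were 0.34 ± 0.46 (adjusted p = 0.585) in Siglec-F high and 1.25 ± 0.46 (adjusted p = 0.0742) in Siglec-F int. Junb passed in Siglec-F high without Siglec-F high library 1 (adjusted p = 0.0347), and with the pair left out (adjusted p = 0.0280). The adjusted p ranged from 0.0280 to 0.822 over all alternatives. In Siglec-F int Junb passed without Siglec-F high library 1 or 2 (adjusted p = 0.00491 to 0.0365), and with TMM factors, only the 2 groups compared, the replicate block, the pair left out, edgeR or DESeq2 (adjusted p = 0.00645 to 0.0465). All alternatives together gave an adjusted p of 0.00491 to 0.176. Maff, a small MAF protein, was at 0.22 ± 0.46 in Siglec-F high and 0.85 ± 0.46 in Siglec-F int. Jund, the JUN protein that resting cells express, was at -0.24 ± 0.36 in Siglec-F high and -0.29 ± 0.36 in Siglec-F int.

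**Figure D2:**
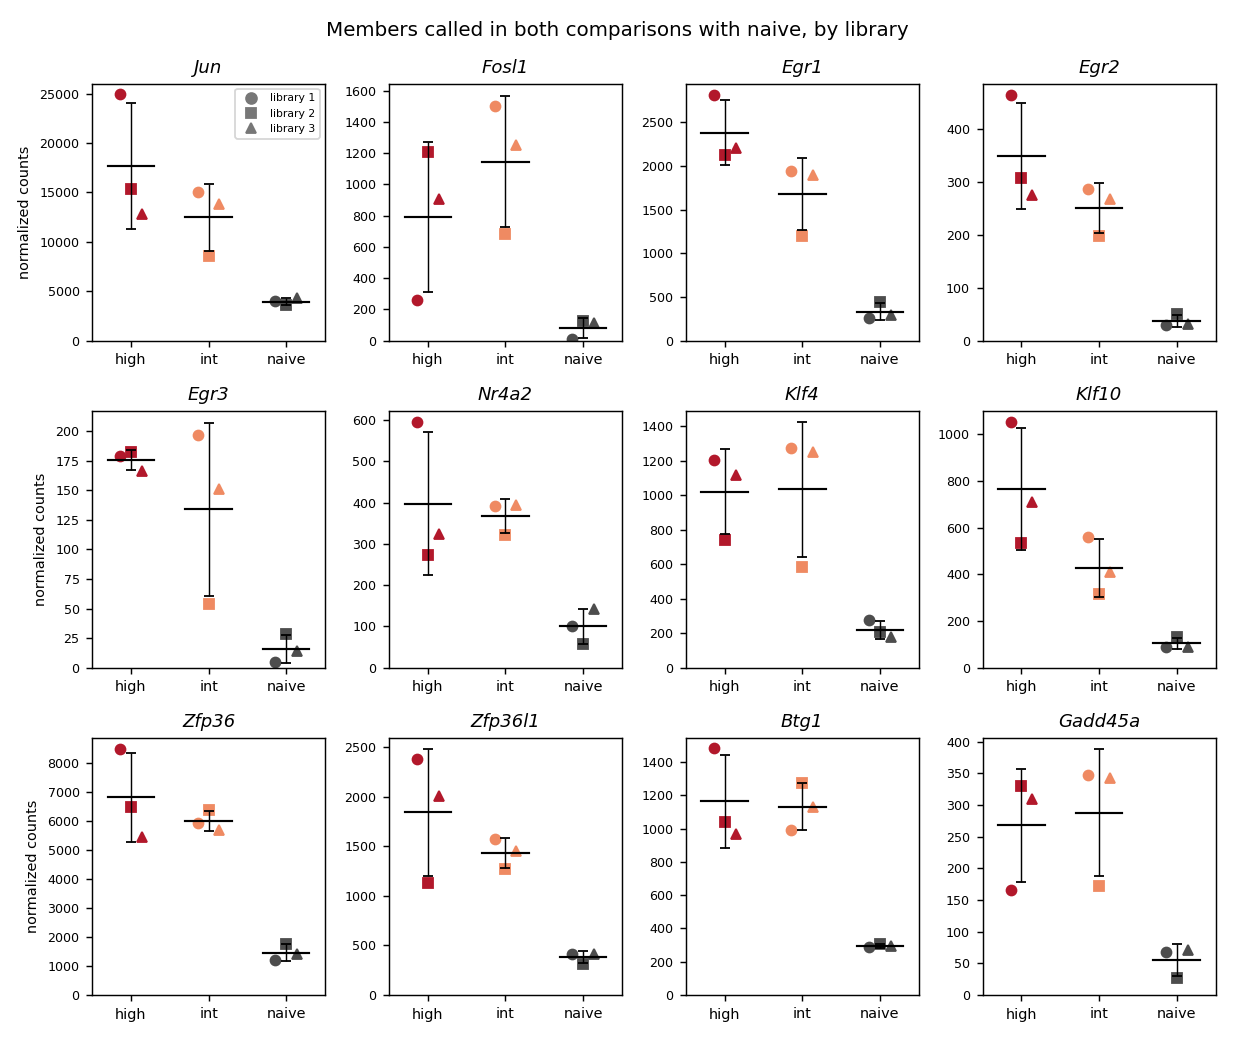
Normalized counts (vertical axis) of 12 genes called in both contrasts with naive, by library, in Siglec-F high, Siglec-F int and naive groups, with lines for the mean and bars for the SD of 3 libraries. In every panel the 6 libraries from tumour-injected mice lie above the 3 naive libraries.

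All 3 EGR zinc finger factors rose in both contrasts. Egr1 (chromosome 18, 34859823 to 34864984), a target of SRF in many cells, stood at 2815, 2123 and 2212 in the Siglec-F high libraries, 1946, 1200.3 and 1892 in the Siglec-F int libraries and 261, 445 and 289 in the naive libraries. The lowest library from tumour-injected mice was thus well above the highest naive library. The log2 fold changes were 2.87 ± 0.31 (adjusted p = 0.000311) in Siglec-F high and 2.34 ± 0.31 (adjusted p = 0.000994) in Siglec-F int. Egr2, whose promoter is shown above and which limits T cell activation, stood at 463, 307 and 275 in the Siglec-F high libraries, 286, 197 and 268 in the Siglec-F int libraries and 29.8, 49.5 and 30.9 in the naive libraries. It was 9.25-fold higher in Siglec-F high, 3.21 ± 0.36 (adjusted p = 0.000372), and 6.75-fold higher in Siglec-F int, 2.76 ± 0.36 (adjusted p = 0.000994). Egr3, a related factor induced by EGR1 in some cells, stood at 179, 182 and 166 in the Siglec-F high libraries, 197, 53.9 and 151 in the Siglec-F int libraries and 4.59, 28.7 and 14.2 in the naive libraries. Naive libraries held few of its reads, 32 in all, and Siglec-F int library 2 was the lowest of the tumour group libraries. Egr3 gave log2 fold changes of 3.70 ± 0.65 (adjusted p = 0.00303) in Siglec-F high and 3.12 ± 0.65 (adjusted p = 0.00796) in Siglec-F int. Without naive library 1 they were 3.06 in Siglec-F high and 2.48 in Siglec-F int.

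The NR4A genes encode orphan nuclear receptors that are induced by antigen receptor and cyclic AMP signals. Of these, Nr4a2 rose. It stood at 596, 272 and 325 in the Siglec-F high libraries, 391, 321 and 393 in the Siglec-F int libraries and 102, 57.3 and 142 in the naive libraries, with no overlap between the naive libraries and the others. Its log2 fold changes were 1.98 ± 0.41 (adjusted p = 0.00648) in Siglec-F high and 1.95 ± 0.41 (adjusted p = 0.00808) in Siglec-F int. Nr4a1, known as Nur77, stood at 1646, 3566 and 2626 in the Siglec-F high libraries, 3003, 1931 and 3049.8 in the Siglec-F int libraries and 1436, 1706 and 1572 in the naive libraries. Its log2 fold changes of 0.67 ± 0.33 (adjusted p = 0.134) in Siglec-F high and 0.73 ± 0.33 (adjusted p = 0.129) in Siglec-F int did not pass the test, though the Siglec-F int libraries did not overlap with naive. Nr4a1 passed in Siglec-F high without Siglec-F high library 1 (adjusted p = 0.0237), and with the pair left out or DESeq2 (adjusted p = 0.00842 to 0.0448). Under all alternatives the adjusted p lay between 0.00842 and 0.347. In Siglec-F int it passed without Siglec-F high library 1 (adjusted p = 0.0361), and with only the 2 groups compared, the pair left out or DESeq2 (adjusted p = 0.00772 to 0.0494). An adjusted p of 0.00772 to 0.325 was seen over all alternatives. Nr4a3 averaged 577 ± 195 in Siglec-F high, 986 ± 380.4 in Siglec-F int and 496 ± 184 in naive libraries, with 0.23 ± 0.38 (adjusted p = 0.667) in Siglec-F high and 0.98 ± 0.38 (adjusted p = 0.0919) in Siglec-F int. Nr4a3 passed in Siglec-F int without Siglec-F high library 1 (adjusted p = 0.0403), and with equal totals, TMM factors, edgeR or DESeq2 (adjusted p = 0.0225 to 0.0492). Over all alternatives the adjusted p was 0.0225 to 0.264.

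Of the Krüppel-like factors, Klf4, Klf6 and Klf10 rose in both contrasts and Klf2 did not pass. Klf10, a target of TGF-beta that represses transcription, stood at 1052, 536 and 711 in the Siglec-F high libraries, 559, 314 and 409.6 in the Siglec-F int libraries and 90.6, 133 and 87.7 in the naive libraries. It gave log2 fold changes of 2.84 ± 0.35 (adjusted p = 0.000577) in Siglec-F high and 2.02 ± 0.35 (adjusted p = 0.00363) in Siglec-F int. Klf4, a factor of monocyte differentiation and of epithelial barriers, stood at 1204, 740.4 and 1115 in the Siglec-F high libraries, 1271, 581 and 1249 in the Siglec-F int libraries and 279, 206 and 178 in the naive libraries. The log2 fold changes came to 2.20 ± 0.37 (adjusted p = 0.00231) in Siglec-F high and 2.16 ± 0.37 (adjusted p = 0.00309) in Siglec-F int. Klf6, which is widely expressed, stood at 2761, 1639 and 2264 in the Siglec-F high libraries, 1916, 1708 and 2196 in the Siglec-F int libraries and 435, 894 and 794 in the naive libraries. Klf6 gave log2 fold changes of 1.68 ± 0.33 (adjusted p = 0.00500) in Siglec-F high and 1.51 ± 0.33 (adjusted p = 0.00947) in Siglec-F int. Klf2, which keeps lymphocytes and endothelium quiescent, averaged 697 ± 148 in Siglec-F high, 561 ± 117 in Siglec-F int and 713 ± 295 in naive libraries, with log2 fold changes of 0.02 ± 0.34 in Siglec-F high and -0.29 ± 0.34 in Siglec-F int. Myc, the growth regulator, stood at 4.39, 108 and 98.9 in the Siglec-F high libraries, 129, 79.2 and 110.1 in the Siglec-F int libraries and 98.6, 44.3 and 83.5 in the naive libraries. Siglec-F high library 1 was the lowest of all, with 4 reads, and the log2 fold changes were -0.90 ± 0.97 (adjusted p = 0.487) in Siglec-F high and 0.53 ± 0.97 (adjusted p = 0.717) in Siglec-F int. Without that library the Siglec-F high value of Myc was 0.53.

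The dual specificity phosphatases, which remove phosphates from MAP kinases, did not move as 1 group. Of the 5 genes, 1 fell in both contrasts, Dusp1 rose in Siglec-F high and Dusp5 rose in Siglec-F int. Dusp4 (chromosome 8, 34807297 to 34819894), a nuclear phosphatase of ERK, JNK and p38 kinases, stood at 16.4, 63.8 and 38.4 in the Siglec-F high libraries, 47.2, 35.0 and 38.9 in the Siglec-F int libraries and 248, 190.2 and 245 in the naive libraries. It is the gene of the set that fell, -2.68 ± 0.50 (adjusted p = 0.00385) in Siglec-F high and -2.47 ± 0.50 (adjusted p = 0.00679) in Siglec-F int, or 6.40-fold lower in Siglec-F high and 5.53-fold lower in Siglec-F int. Every library from tumour-injected mice was below every naive library. The pigment cell markers, all 11 of which were lower in both contrasts, moved the same way as Dusp4, and their part in this result was not tested.

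Dusp1, a nuclear phosphatase that acts on p38 and JNK and whose promoter is shown above, stood at 4080.1, 1776 and 1560.0 in the Siglec-F high libraries, 1447, 1836 and 1445 in the Siglec-F int libraries and 874, 1375 and 991 in the naive libraries. Siglec-F high library 1 held more than 2-fold the level of any other library. Dusp1 passed in Siglec-F high, 1.08 ± 0.37 (adjusted p = 0.0469), and was 0.56 ± 0.37 (adjusted p = 0.297) in Siglec-F int. Without Siglec-F high library 1 the value was 0.65. The call ended without Siglec-F high library 1, Siglec-F int library 1, 2 or 3 or naive library 1, 2 or 3 (adjusted p = 0.0560 to 0.134), and with no filter, no variance trend, only the 2 groups compared, the replicate block or the pair left out (adjusted p = 0.0545 to 0.0959). The adjusted p ranged from 0.00863 to 0.134 over all alternatives.

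Dusp5, a nuclear phosphatase specific to ERK, stood at 192, 1296 and 634 in the Siglec-F high libraries, 755, 1469 and 1192 in the Siglec-F int libraries and 127, 378 and 312 in the naive libraries. The Siglec-F int libraries were all above naive, and Siglec-F high library 1 lay between the naive libraries. The log2 fold changes were 1.13 ± 0.64 (adjusted p = 0.190) in Siglec-F high and 2.15 ± 0.64 (adjusted p = 0.0355) in Siglec-F int. The Siglec-F int call ended without Siglec-F int library 1, 2 or 3 or naive library 1, 2 or 3 (adjusted p = 0.0521 to 0.127), and with no filter or no variance trend (adjusted p = 0.0642 to 0.0698). All alternatives together gave an adjusted p of 0.00305 to 0.127. In Siglec-F high the gene passed without Siglec-F high library 1 (adjusted p = 0.0201), and with the replicate block, the pair left out or DESeq2 (adjusted p = 0.0253 to 0.0460). Under all alternatives the adjusted p lay between 0.0201 and 0.522. Dusp6, the cytoplasmic ERK phosphatase, stood at 2974, 1041 and 1338 in the Siglec-F high libraries, 844, 683 and 945 in the Siglec-F int libraries and 968, 907 and 807 in the naive libraries. It gave log2 fold changes of 0.85 ± 0.37 (adjusted p = 0.0987) in Siglec-F high and -0.13 ± 0.37 (adjusted p = 0.830) in Siglec-F int, and Siglec-F high library 1 was again the highest. Without that library the Siglec-F high value was 0.40. Dusp6 passed in Siglec-F high without Siglec-F high library 2 (adjusted p = 0.0311), and with edgeR or DESeq2 (adjusted p = 0.0269 to 0.0446). An adjusted p of 0.0269 to 0.210 was seen over all alternatives. Dusp2, a phosphatase of activated leukocytes, gave log2 fold changes of 0.41 ± 0.32 in Siglec-F high and 0.54 ± 0.32 in Siglec-F int, and neither passed.

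**Figure D3:**
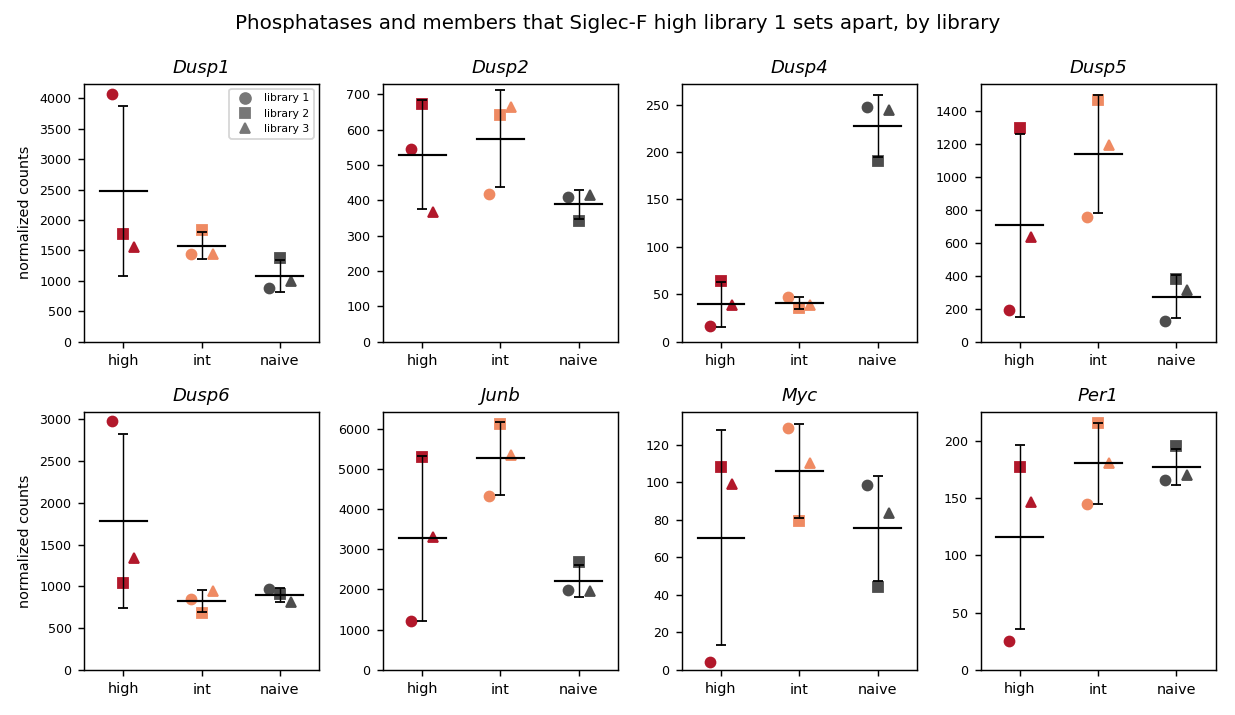
Normalized counts (vertical axis) of the 5 phosphatase genes and of Junb, Myc and Per1 by library in the Siglec-F high, Siglec-F int and naive groups, with lines for the mean and bars for the SD of 3 libraries. Dusp4 is lower in all libraries from tumour-injected mice, and Siglec-F high library 1 (circle) is the highest point for Dusp1 and Dusp6 and the lowest for Junb, Myc and Per1.

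All 3 ZFP36 genes rose in both contrasts. Their proteins bind AU-rich elements through paired CCCH zinc fingers and recruit the machinery that removes the poly(A) tail. Zfp36 (chromosome 7, 28376784 to 28380253), which encodes tristetraprolin, stood at 8494, 6480.2 and 5459 in the Siglec-F high libraries, 5918, 6390.1 and 5688 in the Siglec-F int libraries and 1186, 1771 and 1399 in the naive libraries. It was 4.67-fold higher in Siglec-F high, 2.22 ± 0.27 (adjusted p = 0.000534), and 4.18-fold higher in Siglec-F int, 2.06 ± 0.27 (adjusted p = 0.000994). Zfp36l1, which also restrains lymphocyte growth, stood at 2387, 1134 and 2008 in the Siglec-F high libraries, 1571, 1268 and 1455 in the Siglec-F int libraries and 416, 307 and 413 in the naive libraries. It gave log2 fold changes of 2.22 ± 0.31 (adjusted p = 0.00106) in Siglec-F high and 1.92 ± 0.31 (adjusted p = 0.00260) in Siglec-F int. Zfp36l2, with roles in early lymphocyte development and oocytes, stood at 1233, 965 and 865 in the Siglec-F high libraries, 768, 1011 and 743 in the Siglec-F int libraries and 253, 211 and 245 in the naive libraries. In log2 terms the changes were 2.09 ± 0.27 (adjusted p = 0.000653) in Siglec-F high and 1.82 ± 0.27 (adjusted p = 0.00164) in Siglec-F int. For each of the 3 genes the lowest library from tumour-injected mice was over 2-fold above the highest naive library.

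Messenger RNAs of the set can carry the element that these proteins recognise. The nonamer TTATTTATT was found in the longest annotated 3′ UTR (GENCODE M21, GRCm38) of 8 of the 40 genes (20%) and of 8.39% of 12501 tested genes with an annotated 3′ UTR. The median length was 1152 bases in the set and 1199 bases in all tested genes. The 8 genes were Fos, Fosl2, Maff, Dusp1, Zfp36, Zfp36l1, Zfp36l2 and Csrnp1, so that the ZFP36 family carries the element in each of its own transcripts in the set. The sites of these 3 family members and of Fos, and the first of 2 in Dusp1, follow, counted from 1 at the start of the 3′ UTR, with the nonamer in capitals and 10 bases on each side.
Zfp36, 592 bases into the 3′ UTR: tatgacgactTTATTTATTgtattaagat
Zfp36l1, 1407 bases into the 3′ UTR: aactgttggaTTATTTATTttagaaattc
Zfp36l2, 824 bases into the 3′ UTR: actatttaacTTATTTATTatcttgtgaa
Fos, 658 bases into the 3′ UTR: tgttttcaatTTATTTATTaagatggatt
Dusp1, 106 bases into the 3′ UTR: gagctggtccTTATTTATTtaacaccccc

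Of 14 transcripts reported as targets of this family, 9 rose and 0 fell in Siglec-F high, and 10 rose and 0 fell in Siglec-F int. Their median log2 fold changes were 1.62 in Siglec-F high and 2.03 in Siglec-F int, beside -0.11 and -0.02 for all tested genes. Of all tested genes 14.7% rose and 16.6% fell in Siglec-F high, and 12.0% rose and 10.3% fell in Siglec-F int. Ccl2, a chemokine for monocytes, gave log2 fold changes of 4.46 ± 0.36 (adjusted p = 9.88e-05) in Siglec-F high and 3.98 ± 0.36 (adjusted p = 0.000212) in Siglec-F int. Il6, the acute phase cytokine, averaged 157 ± 89.5 in Siglec-F high, 162 ± 58.3 in Siglec-F int and 17.3 ± 6.78 in naive libraries. Its log2 fold changes were 3.02 ± 0.54 (adjusted p = 0.00315) in Siglec-F high and 3.17 ± 0.54 (adjusted p = 0.00301) in Siglec-F int. Lif, a cytokine of the same family, gave log2 fold changes of 3.68 ± 0.38 in Siglec-F high and 3.41 ± 0.38 in Siglec-F int, and Ptgs2, the inducible cyclooxygenase, 4.21 ± 0.62 in Siglec-F high and 3.96 ± 0.62 in Siglec-F int. Those of Ptgs2 were 3.56 in Siglec-F high and 3.31 in Siglec-F int without naive library 1, and 4.86 and 4.61 without naive library 2.

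The growth regulators of the set rose in most members. Btg1, an antiproliferative partner of the CCR4-NOT deadenylase, stood at 1486, 1039 and 968 in the Siglec-F high libraries, 993, 1276 and 1129.8 in the Siglec-F int libraries and 286, 307 and 292 in the naive libraries. The naive values lay within 286 to 307, and the log2 fold changes were 1.95 ± 0.26 (adjusted p = 0.000849) in Siglec-F high and 1.93 ± 0.26 (adjusted p = 0.00118) in Siglec-F int. Btg2, its p53-induced relative, stood at 2384, 1199 and 1265 in the Siglec-F high libraries, 1296, 1218 and 1111 in the Siglec-F int libraries and 400.2, 432 and 403 in the naive libraries. It gave log2 fold changes of 1.90 ± 0.30 (adjusted p = 0.00180) in Siglec-F high and 1.55 ± 0.30 (adjusted p = 0.00566) in Siglec-F int. Gadd45a, a growth arrest and DNA damage gene, stood at 166, 329.9 and 309 in the Siglec-F high libraries, 347, 171 and 343 in the Siglec-F int libraries and 67.7, 26.1 and 71.0 in the naive libraries. The groups from tumour-injected mice did not overlap with naive, with 2.33 ± 0.49 (adjusted p = 0.00682) in Siglec-F high and 2.42 ± 0.49 (adjusted p = 0.00679) in Siglec-F int.

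Gadd45b, an NF-kB and TGF-beta target that activates p38 through MTK1, stood at 84.5, 223 and 188 in the Siglec-F high libraries, 223, 282 and 252 in the Siglec-F int libraries and 97.5, 128 and 82.7 in the naive libraries. It rose in Siglec-F int, 1.31 ± 0.40 (adjusted p = 0.0406), and was 0.59 ± 0.40 (adjusted p = 0.273) in Siglec-F high. The Siglec-F int call ended without Siglec-F high library 3, Siglec-F int library 1, 2 or 3 or naive library 1, 2 or 3 (adjusted p = 0.0519 to 0.121), and with no filter or no variance trend (adjusted p = 0.0673 to 0.0699). Over all alternatives the adjusted p was 0.00377 to 0.121. In Siglec-F high the gene passed without Siglec-F high library 1 (adjusted p = 0.0241), and with the pair left out (adjusted p = 0.0261). The adjusted p ranged from 0.0241 to 0.573 over all alternatives. Gadd45g, a relative induced by cytokines, averaged 211 ± 99.1 in Siglec-F high, 206 ± 37.7 in Siglec-F int and 82.2 ± 44.9 in naive libraries. Its values of 1.40 ± 0.51 (adjusted p = 0.0592) in Siglec-F high and 1.47 ± 0.51 (adjusted p = 0.0620) in Siglec-F int missed the threshold. Gadd45g passed in Siglec-F high without Siglec-F high library 1 or naive library 2 (adjusted p = 0.0203 to 0.0428), and with TMM factors, the replicate block, the pair left out, edgeR or DESeq2 (adjusted p = 0.0170 to 0.0416). All alternatives together gave an adjusted p of 0.0170 to 0.190. In Siglec-F int it passed without Siglec-F high library 1 or naive library 2 (adjusted p = 0.0233 to 0.0435), and with equal totals, TMM factors, only the 2 groups compared, the replicate block, the pair left out, edgeR or DESeq2 (adjusted p = 0.0241 to 0.0482). Under all alternatives the adjusted p lay between 0.0233 and 0.196.

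Of the 7 other early response genes, 3 rose in Siglec-F high and 2 in Siglec-F int. Ier5, a nuclear protein that activates heat shock factor 1, stood at 774, 760.1 and 736 in the Siglec-F high libraries, 594, 766 and 761 in the Siglec-F int libraries and 248.9, 375 and 166 in the naive libraries. It gave log2 fold changes of 1.60 ± 0.32 (adjusted p = 0.00567) in Siglec-F high and 1.49 ± 0.32 (adjusted p = 0.00892) in Siglec-F int. Rhob, a short-lived endosomal GTPase, stood at 746, 1013 and 894 in the Siglec-F high libraries, 546, 607 and 783 in the Siglec-F int libraries and 313, 500.2 and 357 in the naive libraries. It rose in Siglec-F high, 1.2 ± 0.29 (adjusted p = 0.0122), and was 0.74 ± 0.29 (adjusted p = 0.0901) in Siglec-F int. Rhob passed in Siglec-F int without Siglec-F high library 1 (adjusted p = 0.0347), and with equal totals, TMM factors, edgeR or DESeq2 (adjusted p = 0.0290 to 0.0480). An adjusted p of 0.0290 to 0.287 was seen over all alternatives. Cyr61, a matrix-bound protein that is a target of SRF and YAP, stood at 839, 2457 and 1680.2 in the Siglec-F high libraries, 1683, 841 and 1812 in the Siglec-F int libraries and 706, 570.5 and 652 in the naive libraries. The log2 fold changes came to 1.24 ± 0.42 (adjusted p = 0.0444) in Siglec-F high and 1.09 ± 0.42 (adjusted p = 0.0840) in Siglec-F int. The Siglec-F high call of Cyr61 ended without Siglec-F high library 2 or 3, Siglec-F int library 1 or 3 or naive library 1, 2 or 3 (adjusted p = 0.0588 to 0.116), and with no filter, equal totals, no variance trend, only the 2 groups compared or the replicate block (adjusted p = 0.0584 to 0.0882). Over all alternatives the adjusted p was 0.00150 to 0.116. In Siglec-F int Cyr61 passed without Siglec-F high library 1 or Siglec-F int library 2 (adjusted p = 0.0196 to 0.0450), and with only the 2 groups compared, the pair left out, edgeR or DESeq2 (adjusted p = 0.00215 to 0.0418). The adjusted p ranged from 0.00215 to 0.255 over all alternatives.

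Csrnp1, a nuclear protein induced by AXIN1, stood at 284, 464 and 437 in the Siglec-F high libraries, 401, 637 and 554 in the Siglec-F int libraries and 157, 373 and 218 in the naive libraries. It passed in Siglec-F int, 1.15 ± 0.37 (adjusted p = 0.0489), close to the threshold, and was 0.72 ± 0.37 (adjusted p = 0.157) in Siglec-F high. The call ended without Siglec-F high library 2 or 3, Siglec-F int library 1, 2 or 3 or naive library 1 or 3 (adjusted p = 0.0508 to 0.158), and with a pseudocount of 0.5, no filter, no variance trend or the pair left out (adjusted p = 0.0502 to 0.0931). All alternatives together gave an adjusted p of 0.0144 to 0.158. Ier2, a short-lived nuclear protein, gave log2 fold changes of 0.01 ± 0.49 in Siglec-F high and 0.61 ± 0.49 in Siglec-F int. Sik1, a kinase that restrains CREB coactivators, gave log2 fold changes of -1.07 ± 0.77 in Siglec-F high and 0.10 ± 0.77 in Siglec-F int. Per1, the clock gene with a cyclic AMP response, gave log2 fold changes of -1.01 ± 0.62 in Siglec-F high and 0.01 ± 0.62 in Siglec-F int. Without Siglec-F high library 1 the Siglec-F high value was -0.064 for Sik1 and -0.13 for Per1. With all libraries none of the last 3 passed in either contrast, and Ier2 passed in Siglec-F int with the pair left out (adjusted p = 0.0398), over a range of 0.0398 to 0.633 under all alternatives.

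Siglec-F high library 1 departed from libraries 2 and 3 of its group in both directions, over all tested genes as in the set, so the departure is not particular to the set. It was the highest of the 9 libraries for 14 of the 40 genes (35.0%, beside 25.9% of all tested genes) and the lowest for 9 (22.5%, beside 30.8%). The 14 included Jun, Egr1, Egr2, Klf10, Btg2, Dusp1, Dusp6 and all 3 ZFP36 genes. The 9 were Fosb, Junb, Jund, Maff, Myc, Dusp4, Ier2, Sik1 and Per1. Per1 stood at 25.2, 177 and 147 in the Siglec-F high libraries, and Sik1 at 7.68, 97.2 and 48.6. Junb stood at 1211, 5304 and 3306. Naive library 1 was the lowest for 16 genes (40%, beside 13.7% of all tested genes). Without Siglec-F high library 1, 26 genes rose and 1 fell in Siglec-F high (4049 of 13642 tested genes called, against 4266 with it), and 29 rose and 1 fell in Siglec-F int (5167 called, against 3036). Without both this library and Siglec-F int library 2 the counts were 26 and 1 in Siglec-F high (4188 of all tested genes called), and 27 and 1 in Siglec-F int (4623 called).

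**Figure D4:**
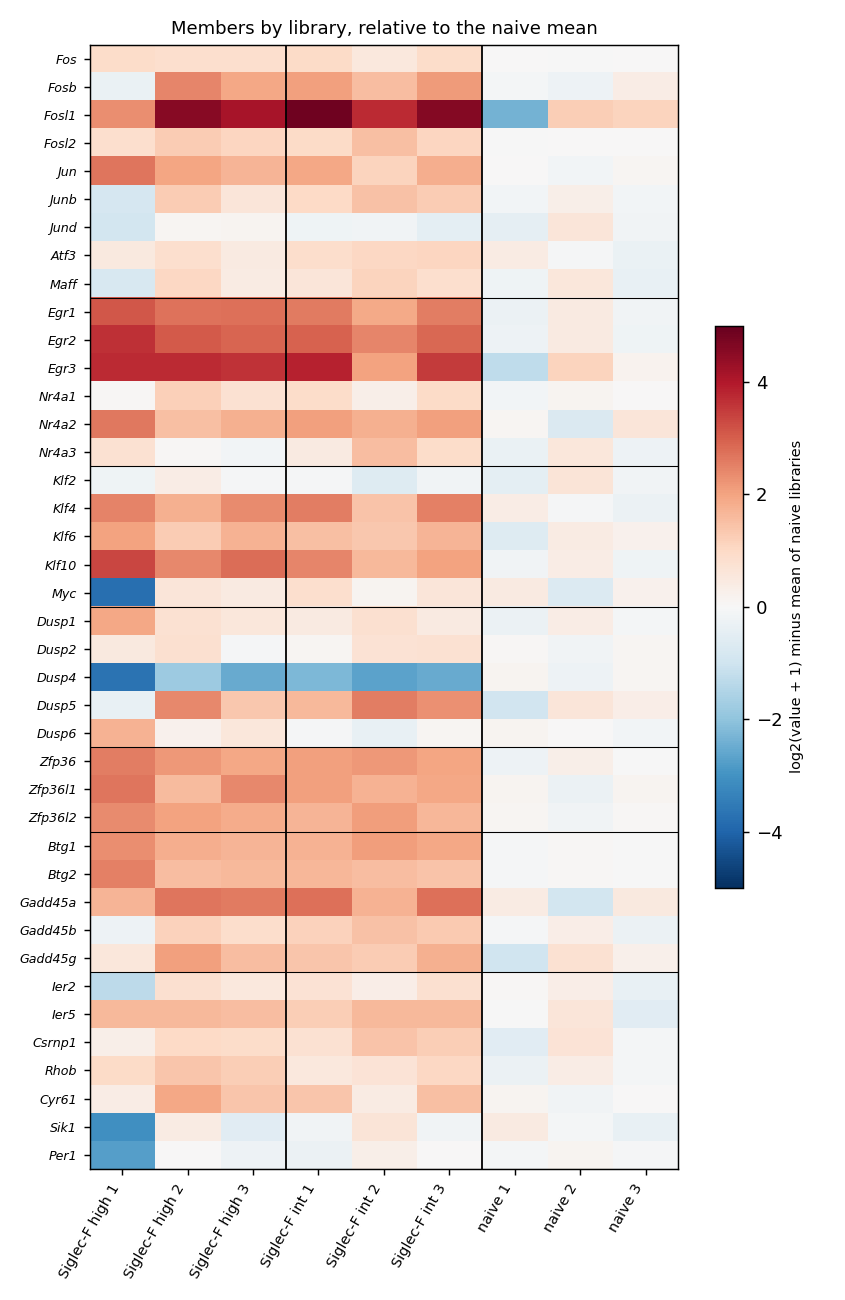
Difference in log2(value + 1) from the mean of the naive libraries (colour, from -5 to 5) for the 40 genes in rows, grouped by role, and the 9 libraries in columns. The EGR, ZFP36, BTG and Gadd45a rows are red in all 6 libraries from tumour-injected mice, the Dusp4 row is blue, and Siglec-F high library 1 is blue for Myc, Sik1 and Per1.

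Between Siglec-F high and Siglec-F int libraries, limma called 0 of the 40 genes and 0% of all tested genes. At an unadjusted p under 0.05 there were 2 genes of the set and 591 of all tested genes (4.33%), and edgeR and DESeq2 called 0 of the set. The 2 were Dusp6, with a difference of 0.97 (95% interval 0.16 to 1.79), and Klf10, with 0.82 (95% interval 0.04 to 1.61), on the log2 scale (adjusted p = 0.797 for both). Values did not overlap for 2 genes that were higher in Siglec-F high, Egr1 and Dusp6, and 2 that were lower, Atf3 and Gadd45b, beside 5.52% and 5.75% of all tested genes. The difference was 0.53 (95% interval -0.15 to 1.2) for Egr1, -0.40 (95% interval -0.99 to 0.19) for Atf3 and -0.72 (95% interval -1.61 to 0.17) for Gadd45b. The widest intervals leave room for differences of several-fold, as for Myc, -1.43 (95% interval -3.57 to 0.70), and Dusp5, -1.02 (95% interval -2.43 to 0.39). Those of Zfp36, 0.16 (95% interval -0.44 to 0.76), and Fos, 0.05 (95% interval -0.47 to 0.57), are narrower, and neither shows that the groups are alike.

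Of 18 MAP kinase genes 1 rose and 4 fell in Siglec-F high, and 1 rose and 0 fell in Siglec-F int, with median log2 fold changes of -0.77 in Siglec-F high and -0.16 in Siglec-F int. Beside this and the lists that follow, 14.7% of all tested genes rose and 16.6% fell in Siglec-F high. In Siglec-F int 12.0% rose and 10.3% fell. The 22.2% of MAP kinase genes that fell in Siglec-F high is near that share. Among those that fell in Siglec-F high were Map2k2, which encodes MEK2, at -1.54 ± 0.38 (adjusted p = 0.0138), Map2k7 at -1.54 ± 0.45 and Mapk14, which encodes p38-alpha, at -1.10 ± 0.33. Map2k2 stood at 155, 455 and 330 in the Siglec-F high libraries. Without Siglec-F high library 1 the values were -1.10 for Map2k2, -0.99 for Map2k7 and -1.04 for Mapk14, and each was still called. The call of Map2k7 ended without naive library 1, 2 or 3 (adjusted p = 0.0563 to 0.0885), and with equal totals, no variance trend, only the 2 groups compared or edgeR (adjusted p = 0.0518 to 0.0667). Under all alternatives the adjusted p lay between 0.0156 and 0.0885. That of Mapk14 ended without Siglec-F high library 3 or naive library 2 or 3 (adjusted p = 0.0602 to 0.0819), and with no filter, TMM factors, no variance trend or edgeR (adjusted p = 0.0511 to 0.0660). An adjusted p of 0.0126 to 0.0819 was seen over all alternatives.

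Of 12 genes for SRF, ternary complex factors and CREB relatives, 4 rose and 1 fell in each contrast. The one that fell was Srf itself, which averaged 87.2 ± 68.3 in Siglec-F high, 156 ± 47.6 in Siglec-F int and 451 ± 95.1 in naive libraries. In log2 terms the changes were -2.61 ± 0.50 (adjusted p = 0.00462) in Siglec-F high and -1.54 ± 0.50 (adjusted p = 0.0494) in Siglec-F int. Without Siglec-F high library 2 the Siglec-F high value was -3.21. The Siglec-F int call of Srf ended without Siglec-F high library 3, Siglec-F int library 1, 2 or 3 or naive library 1, 2 or 3 (adjusted p = 0.0645 to 0.163), and with a pseudocount of 0.5, no filter, equal totals, TMM factors, no variance trend or edgeR (adjusted p = 0.0525 to 0.128). Over all alternatives the adjusted p was 0.00597 to 0.163. Elk3, a ternary complex factor, gave log2 fold changes of 1.23 ± 0.28 (adjusted p = 0.0103) in Siglec-F high and 0.98 ± 0.28 (adjusted p = 0.0315) in Siglec-F int, Atf1 gave log2 fold changes of 1.39 ± 0.30 in Siglec-F high and 1.06 ± 0.30 in Siglec-F int and Atf2 2.19 ± 0.50 in Siglec-F high and 1.57 ± 0.50 in Siglec-F int. The Siglec-F int calls of these 3 were also lost without single libraries. Elk3 lost its call without Siglec-F int library 1, 2 or 3 or naive library 2 or 3 (adjusted p = 0.0779 to 0.104), and with no filter or no variance trend (adjusted p = 0.0568 to 0.0719). It also lost it with a fold minimum of 2, which its log2 fold change of 0.98 misses. The adjusted p ranged from 0.00337 to 0.104 over all alternatives. Atf1 lost its call without Siglec-F int library 1, 2 or 3 or naive library 3 (adjusted p = 0.0730 to 0.0908), and with no variance trend (adjusted p = 0.0534). All alternatives together gave an adjusted p of 0.00189 to 0.0908. Atf2 lost its call without Siglec-F high library 3, Siglec-F int library 1, 2 or 3 or naive library 1, 2 or 3 (adjusted p = 0.0646 to 0.139), and with no filter or no variance trend (adjusted p = 0.0792 to 0.0796). Under all alternatives the adjusted p lay between 0.00600 and 0.139.

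Of 25 further early genes and feedback inhibitors, 24 passed the filter. In Siglec-F high 11 of them rose and 0 fell, and in Siglec-F int 12 rose and 0 fell. Errfi1, an inhibitor of EGF receptor kinases, averaged 1753 ± 179 in Siglec-F high, 1325 ± 541 in Siglec-F int and 103 ± 8.45 in naive libraries. Its log2 fold changes were 4.07 ± 0.34 (adjusted p = 0.000130) in Siglec-F high and 3.57 ± 0.34 (adjusted p = 0.000314) in Siglec-F int. Sgk1, a kinase induced by serum and glucocorticoids, gave log2 fold changes of 3.36 ± 0.36 (adjusted p = 0.000308) in Siglec-F high and 2.96 ± 0.36 (adjusted p = 0.000728) in Siglec-F int. Hbegf, an EGF receptor ligand, gave log2 fold changes of 2.93 ± 0.46 in Siglec-F high and 2.86 ± 0.46 in Siglec-F int, and Nab1, a corepressor of EGR factors, 2.01 ± 0.36 in Siglec-F high and 2.01 ± 0.36 in Siglec-F int. Among 12 heat shock chaperones, which also respond to dissociation, 4 rose and 1 fell in Siglec-F high and 3 rose and 2 fell in Siglec-F int. Dnajb4 gave log2 fold changes of 3.60 ± 0.48 (adjusted p = 0.000807) in Siglec-F high and 2.84 ± 0.48 (adjusted p = 0.00291) in Siglec-F int, while Hspe1 fell, -1.33 ± 0.26 (adjusted p = 0.00525) in Siglec-F high and -1.70 ± 0.26 (adjusted p = 0.00206) in Siglec-F int. Hspa1b rose in both, 1.30 (adjusted p = 0.0242) in Siglec-F high and 1.43 (adjusted p = 0.0207) in Siglec-F int. Dnaja1 rose in Siglec-F high, 1.29 (adjusted p = 0.0227), and was 1.09 (adjusted p = 0.0523) in Siglec-F int. Over all alternatives the adjusted p of Hspa1b was 0.00236 to 0.0881 in Siglec-F high and 0.00197 to 0.0791 in Siglec-F int. That of Dnaja1 was 0.00331 to 0.0716 in Siglec-F high and 0.0146 to 0.162 in Siglec-F int. The summed level of the 12 overlapped between groups, at 17817 to 21059 in Siglec-F high, 15801 to 18757 in Siglec-F int and 18001 to 21946 in naive libraries. That sum joins genes that moved in opposite directions, so its overlap does not describe those that rose. Hspe1 averaged 2378 in Siglec-F high, 1858 in Siglec-F int and 5980.0 in naive libraries, and Hspa1b 1792, 1804 and 689. The labels name no difference in handling between groups, and the part of handling in the rise of the set was not tested.

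**Figure D5:**
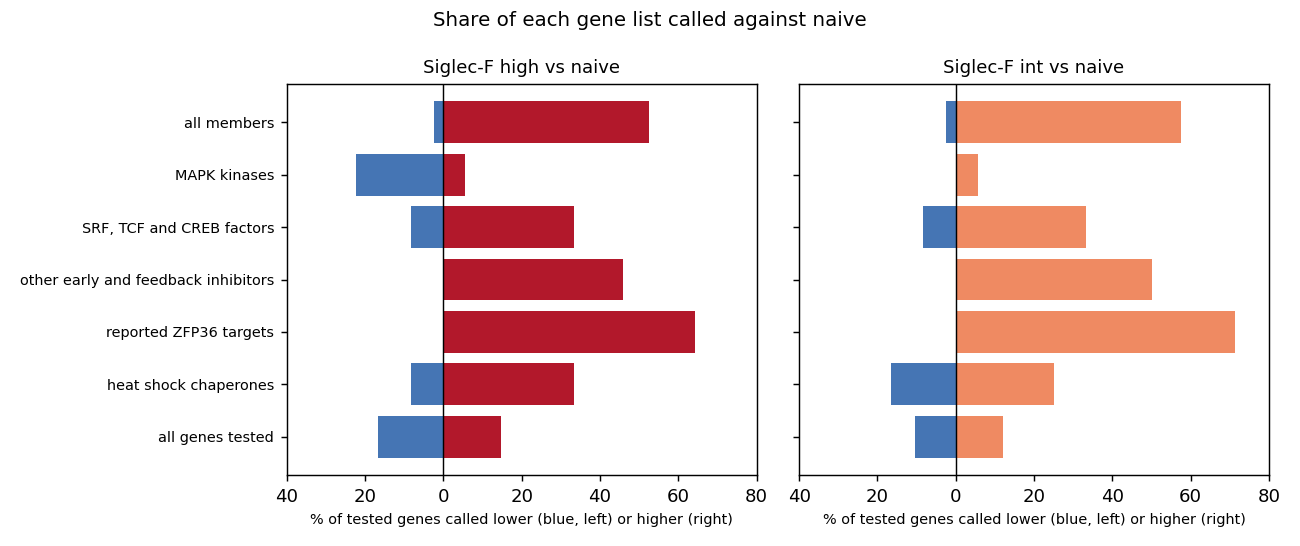
Share of tested genes called higher (right of 0) or lower (left of 0, blue) against naive, in percent, for the 40 genes, for 5 related lists and for all genes tested, in Siglec-F high (left panel) and Siglec-F int (right panel). The set stands at 52.5% higher and 2.5% lower in Siglec-F high and 57.5% and 2.5% in Siglec-F int, with all genes at 14.7% and 16.6%, and 12.0% and 10.3%.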

How the data were processed

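RNA of 9 libraries in 3 groups was sequenced. Per the submitters' processing notes, TopHat2 2.1.0, HTSeq, DESeq2 1.10.0 and GRCm38 were used; the labels name Cell-seq protocols, and whether molecular identifiers were counted is not given in the sources used here. The deposited signal values are normalized counts, read counts that the authors, as the values show, divided by 1 size factor per library and rounded to 2 decimals; whole reads could be recovered from them for all values up to 2000 reads, within 0.05 of a read. Of 54670 entries, 63 with names turned into dates (0.219% of the total) and repeated entries (116 exact, 42 with the same name and values) were left out, leaving 54449. limma 3.58.1 (R 4.3.3) was fitted to log2(value + 1) of all 9 libraries with a variance trend, for genes with a mean of at least 5; p-values were two-sided and Benjamini-Hochberg adjusted over all genes tested, at a threshold of 0.05. Alternatives were count tests on those reads (DESeq2 1.42.0 and edgeR 4.0.16), other pseudocounts (0.5 and 5), filters and scalings, a replicate block, and each library left out. No pair of libraries was a repeat of the same one. The code was tested on simulated data. The 40 genes and all lists were chosen with earlier results of these data known. Values per library are given for called genes, up to 5 per class by smallest adjusted p, and for the gene with the highest mean; genes of other lists were limited to the 4 with the smallest adjusted p, of which 1 is not reported here. Myc and Dusp6, and the single values of Junb, Per1 and Sik1, were added after their values were seen.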

Additional observations from a re-analysis of the deposited data

How the results depend on the processing

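The number of the 40 genes called was 19 to 28 in Siglec-F high and 18 to 30 in Siglec-F int over the settings tried, beside 22 and 24 as reported, and 0 in Siglec-F high against Siglec-F int under every setting. Over the same settings the number of all tested genes called also moved. It was 2509 to 5101 in Siglec-F high and 1401 to 5167 in Siglec-F int, beside 4266 and 3036 as reported. Of the 22 genes called in Siglec-F high, 19 were called under all 22 alternatives, with Cyr61, Dusp1, Fos lost under at least 1. Of the 24 called in Siglec-F int, 18 were, with Atf3, Csrnp1, Dusp5, Fos, Fosb, Gadd45b lost under at least 1. No called gene of the 40 changed direction, and none of them was lost with edgeR or DESeq2; of the other genes named, Map2k7 and Mapk14 in Siglec-F high and Srf in Siglec-F int were lost with edgeR. With the replicate number as a block (replicate block), 22 genes were called in Siglec-F high and 26 in Siglec-F int, beside 4317 and 3091 of all tested genes. Dusp1 and Cyr61 were lost and Dusp5 and Gadd45g gained in Siglec-F high, and Junb and Gadd45g gained in Siglec-F int. The main fit did not use the numbers as pairs. Between Siglec-F high and Siglec-F int, the block gave 4 of the 40 genes and 813 of all tested genes at an unadjusted limma p under 0.05. Without it there were 2 and 591, and no gene was called either way. Correlations of same-numbered libraries were -0.029 to 0.141 over 9 pairs, naive libraries included, 2 of them over 0.1. Between Siglec-F high and Siglec-F int, the 3 same-numbered pairs had 0.072 to 0.141 and the 6 others -0.157 to -0.011. These are correlations of deviations from group means, which cancel within a group, so positive pairs force negative values among the others. That each library correlates best with its own number there is thus only a weak hint from the data, not from the design. Genes that were not called changed direction, and the cause was not tested. With single libraries left out, the log2 fold change in Siglec-F high ranged over -0.13 to 0.93 for Junb, -0.46 to 0.11 for Jund, -0.20 to 0.73 for Maff, -0.032 to 0.51 for Nr4a3, -0.21 to 0.34 for Klf2, -1.64 to 0.53 for Myc and -0.39 to 0.66 for Ier2, and in Siglec-F int over -0.51 to 0.014 for Jund, -0.52 to 0.027 for Klf2, -0.23 to 0.0031 for Dusp6, -0.17 to 0.34 for Sik1 and -0.13 to 0.16 for Per1. With library 1 of Siglec-F high and library 2 of Siglec-F int both left out it was 0.11 for Jund, -0.032 for Nr4a3 and 0.53 for Myc in Siglec-F high, and 0.0031 for Dusp6, -0.17 for Sik1 and -0.13 for Per1 in Siglec-F int. With edgeR, Myc in Siglec-F high was 0.060 and Dusp6 in Siglec-F int 0.088. Dusp6 in Siglec-F int was 0.14 with equal totals and 0.053 with TMM factors. Depth limits the low genes most: Egr3 had 32 reads in the naive group and Myc 4 in Siglec-F high library 1.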
